A study of Rattus norvegicus with 6 samples.

Results

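Transcript levels of 7 amino acid transporters, Slc7a1, Slc3a2, Slc7a5, Slc6a9, Slc1a1, Slc1a3 and Slc38a2, were examined in primary cultures of cardiac fibroblasts exposed to pertussis toxin (PTX). The genes were picked with earlier results of the same comparison in view, so their levels and changes are given as a description and carry no test. Their members are the probe sets whose annotation names exactly 1 gene, that gene being one of the 7. A probe set is the group of short array probes that together read a transcript and give 1 signal. There were 14 such probe sets among 8740 in all, or among 7006 that name a single gene. They cover 6 of the 7 genes, out of 4736 genes named on the array, and Slc38a2, which encodes a sodium-coupled carrier of small neutral amino acids, matched no probe set name and is not analysed here.

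Cells came from the ventricles of Sprague-Dawley rats aged 1 to 2 days and were grown in 6-well plates. The control group is 3 cultures given water, and the PTX group is 3 cultures given the toxin for 24 h; no dose is stated in the labels. PTX ADP-ribosylates the alpha subunits of the Gi and Go proteins, so that their receptors can no longer activate them. Each culture was read on its own 1-colour Affymetrix array, and the labels do not say whether the cultures of a group came from separate isolations, so any spread given here may be technical.

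Amino acid transporters are carriers of the plasma membrane that set how much of each amino acid a cell takes up or gives off. Slc7a1 encodes the cationic carrier of arginine and lysine. Slc3a2 encodes the CD98 heavy chain, a glycoprotein that brings light chains such as Slc7a5 to the cell surface, and Slc7a5 then exchanges large neutral amino acids such as leucine. Slc6a9 takes up glycine with sodium and chloride, and Slc1a1 and Slc1a3 take up glutamate and aspartate; Slc1a3 is best known from glia. When amino acids run short or proteins misfold, translation of the transcription factor ATF4 goes up, and Slc7a1, Slc3a2, Slc7a5, Slc6a9 and Slc38a2 are among its known targets, beside enzymes of amino acid synthesis such as Asns. ATF4 pairs with C/EBP proteins on a composite site in the promoters or first introns of such genes.

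The bases just upstream of the start are shown for the 3 transporters whose brightest probe set separated the groups, Slc7a1, Slc7a5 and Slc3a2, because these were lower together, and for Trib3, an ATF4 target that was lower with them and whose window holds a match; the windows of Asns and Ddit3, which were lower as well, hold none. They are the 60 bases before the annotated start in RefSeq's GRCr8 assembly, 5′ to 3′ on the gene's strand, with any match to TGATGNAA, the core of the composite site, in capitals. They come from chr12:11664428-11664487 (+ strand) for Slc7a1, chr19:66872413-66872472 (- strand) for Slc7a5, chr1:215048065-215048124 (- strand) and chr1:215039671-215039730 (- strand) for the upstream and downstream starts of Slc3a2, and chr3:161275534-161275593 (- strand) for Trib3.
Slc7a1: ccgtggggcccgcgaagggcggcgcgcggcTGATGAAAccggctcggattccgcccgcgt
Slc7a5: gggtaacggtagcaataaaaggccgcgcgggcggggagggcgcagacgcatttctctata
Slc3a2 upstream start: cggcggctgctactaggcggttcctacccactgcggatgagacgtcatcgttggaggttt
Slc3a2 downstream start: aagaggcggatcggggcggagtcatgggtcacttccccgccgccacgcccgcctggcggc
Trib3: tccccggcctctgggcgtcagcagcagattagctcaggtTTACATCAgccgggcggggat
The match in Slc7a1 lies 30 to 23 bases before the start, on the gene's strand, and the one in Trib3 lies 21 to 14 bases before it, on the opposite strand.
Over windows of 300 bases, from 250 before to 50 after a start, both strands were searched for TGATGNAA, and 3.98% of 33469 windows held it. Of the 9 windows of the transporters, which cover 6 of the 7 genes (Slc1a1 has none in the table used), 1 held it, that of Slc7a1. TGACGTCA, the cAMP response element, was in 1.83% of all windows and in 0 of these 9. No run of 8 bases can match both motifs. A match is a run of letters, and introns and more distant sequence were not searched.

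The 6 arrays had median signals of 63.1 to 68.85. Control replicate 1 stood apart, with Pearson correlations to the other 5 arrays of 0.952 to 0.960 across probe sets on the log2 scale, against 0.978 to 0.985 among those 5. Each transporter result is therefore also given without it where it moves by much. None of the 14 probe sets belongs to the rc_AA799, rc_AA800, rc_AA892, rc_AA893 or rc_AA894 name groups, the first 2 of which are left out in an alternative below. X63744_g_at of Slc1a3, a probe set outside these groups, was at 5.40 on control replicate 1, against 30.9 to 41.2 on the other 5 arrays. Values of the name groups themselves on that array are not given here. Of the labelled cell type, 11 fibroblast marker genes were above the filter, with Col3a1, a fibrillar collagen, at 20222 ± 1932 in the controls and 17300.5 ± 1486 with PTX (SD, n = 3 each). The cardiomyocyte marker Myl2, a ventricular myosin light chain, was bright too, at 52335 ± 15205 and 42453 ± 4037. The cultures thus hold transcripts of both cell types, and in such bulk samples fewer cells of a type and less RNA per cell cannot be told apart.

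Signals were analysed as log2(signal + 16), so a log2 change understates the difference of a low signal. Fold values below are taken from that change and are not ratios of the mean signals. A limma model was fitted to the 5244 probe sets above the 40th percentile of mean log2 value. Of the 14 transporter probe sets 10 passed that filter and 4 did not. With all arrays, 0 of the 10 passed an adjusted p of 0.05. Of all tested probe sets 0.0763% did, all of them higher with PTX. Without control replicate 1, limma called 1 of the 10, rc_AA957917_s_at of Slc7a1, lower, with a log2 change of -0.83. In that fit 0.343% of all tested probe sets were called lower. On 4 of the 10, every PTX array lay below every control array; 10.6% of all tested probe sets did so. On the other 6 the groups overlapped, and on none did every PTX array lie above the controls, as 12% of all tested probe sets did. The change was negative on 7 of the 10. It was so on 52.9% of all tested probe sets, and on 65.2% of those whose names do not begin with rc_. Of the 14 transporter probe sets, 13 have such names without rc_. Because the genes were chosen on this comparison, nothing is read from these counts.

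**Figure D1:**
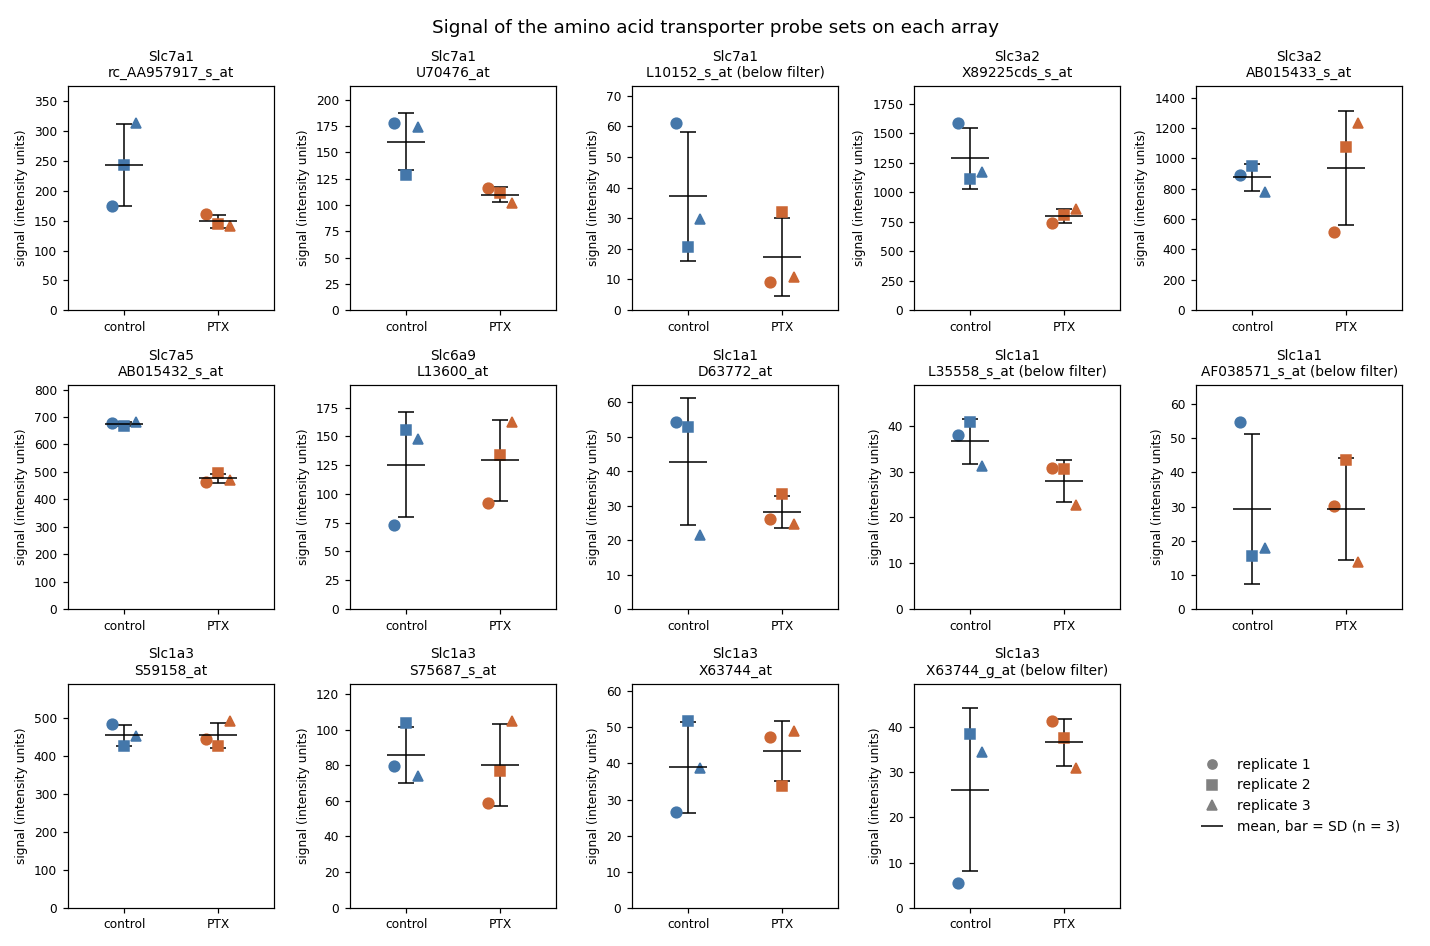
Signal in intensity units (linear axis from 0) on each control (blue) and PTX (orange) array, 1 panel for each of the 14 transporter probe sets, with symbols for the replicates, a line for the mean and a bar for the SD (n = 3). The Slc7a5 panel shows 2 tight groups far apart, from 666 to 681 in the controls and from 463 to 494 with PTX, whereas in the second Slc3a2 panel the PTX arrays span 515 to 1230.

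The heavy and light chain of the leucine exchanger, Slc3a2 and Slc7a5, were both lower with PTX on their brightest probe sets. Slc7a5, read by the single probe set AB015432_s_at, had signals of 679, 666 and 681 in the controls and 463, 494 and 472 with PTX. The groups lay far apart, and the controls were nearly equal. The means were 675 ± 8.16 and 476 ± 16.2 (SD, n = 3 each). The log2 change was -0.49 ± 0.12 (SE), or controls 1.40-fold higher on that scale. Of all tested probe sets, 4.06% had a change as low or lower. Without control replicate 1 the change was again -0.49, and leaving out any single array kept it between -0.52 and -0.47.

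Slc3a2 has 2 probe sets, which did not give the same picture. On X89225cds_s_at the controls had 1584, 1111 and 1172 and the PTX arrays 737, 811 and 854. All PTX arrays lay below all controls, and control replicate 1 was the highest of the 6. The means were 1289 ± 257 and 801 ± 59.2 (SD, n = 3 each). The log2 change was -0.66 ± 0.17 (SE), or controls 1.58-fold higher on that scale. It was -0.50 without control replicate 1. A change as low or lower was found for 1.58% of tested probe sets.

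The other Slc3a2 probe set, AB015433_s_at, did not separate the groups. Its signals were 892, 949.5 and 780.2 in the controls and 515, 1072 and 1230 with PTX. The suffix _s_at marks, in Affymetrix naming, probes that can match several transcripts, and the other Slc3a2 probe set carries it too. So do the single Slc7a5 probe set, AB015432_s_at, and the brightest Slc7a1 probe set, rc_AA957917_s_at. PTX replicate 1 was the lowest of the 6 arrays, and PTX replicates 2 and 3 were the highest. The log2 change was 0.01 ± 0.30 (SE), and single arrays set its direction, since it was 0.39 without PTX replicate 1 and -0.22 without PTX replicate 3. The direction of Slc3a2 as a gene therefore depends on which probe set is read, and the mean over both was -0.32.

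Slc7a1, the arginine and lysine carrier, was lower with PTX on each of its 3 probe sets by the mean, and on 2 of them without overlap. On the brightest, rc_AA957917_s_at, the controls had 175, 243 and 313 and the PTX arrays 162, 144 and 141. The controls were widely spread and the PTX arrays close together, and control replicate 1 came within 13.7 units of the highest PTX array. The means were 244 ± 68.9 and 149 ± 11.1 (SD, n = 3 each). The log2 change was -0.62 ± 0.21 (SE), or controls 1.54-fold higher on that scale. It was -0.83 without control replicate 1 and -0.43 without control replicate 3.

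On the second Slc7a1 probe set, U70476_at, the controls had 177.5, 129 and 174 and the PTX arrays 116, 112 and 102. Here control replicate 2, not replicate 1, was the lowest control, so the 2 probe sets did not order the controls alike. The log2 change was -0.47 ± 0.18 (SE), or -0.40 without control replicate 1. The third, L10152_s_at, lay below the filter, with 60.9, 20.7 and 29.7 against 9.10, 32.1 and 10.7. Its groups overlapped, and its change of -0.67 was -0.36 without control replicate 1, the highest of its controls.

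Slc6a9, the glycine transporter, showed no separation of the groups. L13600_at had 72.8, 155 and 148 in the controls and 91.9, 133.5 and 162 with PTX. Replicate 1 was the lowest array of each group, and the range of the controls enclosed all but 1 of the PTX arrays, replicate 3. The log2 change was 0.07 ± 0.30 (SE), and -0.24 without control replicate 1.

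Slc1a3, the glutamate transporter known from glia, had almost equal signals in the groups on its brightest probe set. On S59158_at the controls had 484.5, 428 and 453 and the PTX arrays 446, 427 and 493. The means were 455 ± 28.2 and 455 ± 33.8 (SD, n = 3 each) and the log2 change was -0.00051 ± 0.13 (SE). The other tested probe sets of the gene had log2 changes of -0.10 ± 0.24 for S75687_s_at and 0.13 ± 0.27 for X63744_at (SE), with overlapping groups. Without control replicate 1 these were -0.14 and -0.05, so the direction of X63744_at rests on that array. Another, X63744_g_at, lay below the filter and had 5.40 on control replicate 1 against 30.9 to 41.2 on the other 5 arrays, so its change of 0.43 went to -0.0025 without that array.

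Slc1a1, the other glutamate transporter, stood no higher than the 46.7th percentile of an array's signals on any of its 3 probe sets, and 1 passed the filter. That one, D63772_at, had 54.2, 52.7 and 21.5 in the controls and 26.0, 33.4 and 24.8 with PTX. Control replicate 3 was the lowest of the 6 arrays, so the groups overlapped, and the log2 change of -0.37 ± 0.32 (SE) became -0.66 without it and -0.21 without control replicate 1. Below the filter, L35558_s_at had 38.0, 40.8 and 31.2 against 30.8, 30.5 and 22.7. These groups missed each other by 0.4 units, with a log2 change of -0.26. The last, AF038571_s_at, overlapped fully, with 54.7, 15.4 and 17.8 against 30.1, 43.8 and 13.8, and had a change of 0.04, or 0.42 without control replicate 1.

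**Figure D2:**
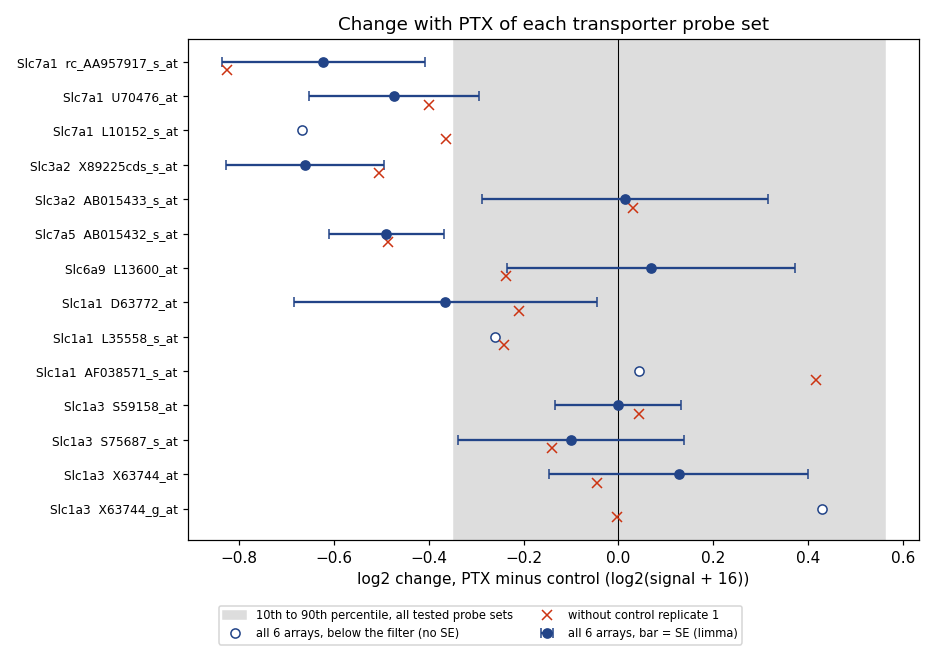
Log2 change of each transporter probe set, PTX minus control, on the log2(signal + 16) scale, with filled points and SE bars for the 10 tested probe sets, open points for the 4 below the filter and crosses for the change without control replicate 1. The grey band spans the 10th to 90th percentile of all tested probe sets, from -0.35 to 0.56. The points of Slc7a1, Slc7a5 and 1 Slc3a2 probe set lie left of the band, at -0.67 to -0.47, that of the tested Slc1a1 probe set lies just left of it, at -0.37, and those of Slc6a9 and of the other Slc3a2 probe set near 0.

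With each gene represented by its brightest probe set, the median of the log2 changes of the 6 genes was -0.43. Leaving out control replicate 1 gave -0.36. The median over all tested probe sets was -0.02, and over those whose names do not begin with rc_, as for 13 of the 14 here, -0.10. With all probe sets of a gene averaged, the median of the 6 genes was -0.26. Slc7a5 and Slc7a1 were lower on every probe set, Slc3a2 was lower on 1 of 2, and Slc6a9, Slc1a1 and Slc1a3 had overlapping groups on all tested probe sets.

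The probe sets of other genes whose pattern over the 6 arrays was most like each transporter were found by Pearson correlation of log2 values, as a description over 6 arrays that share the group difference, with 4371 probe sets searched for each. Closest to Slc7a1 was Bcat1, the cytosolic branched-chain aminotransferase (r = 0.994), followed by S100a10 (0.966) and Anxa5 (0.958). Closest to Slc3a2 were Slc2a4, the insulin-regulated glucose carrier, and Fkbp1a (0.991 each) and Sh3gl1 (0.989), and closest to Slc7a5 were Exoc3 (0.996), the kinase gene Pak2 (0.987) and Irs1, a substrate of the insulin receptor (0.979). For the genes that did not separate the groups, Prpf3, Akr1c3 and Tlcd1 followed Slc6a9 (0.968 to 0.987), Rnf157, Sult1a1 and Lmna followed Slc1a1 (0.962 to 0.970), and Itpr3, Ripk3 and Fuca1 followed Slc1a3 (0.939 to 0.944). With 6 points and this many probe sets, high values arise readily. Of these 18 genes Bcat1 is the one on a list used here.

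Other genes listed as amino acid transporters gave no call. The list also holds Slc6a8, a creatine carrier, whose change of -0.17 is the median given below without control replicate 1. Of 54 listed, 19 had a probe set and 7 passed the filter, and limma called 0 of the 7 higher and 0 lower (also 0 with p under 0.05 before adjustment). On all 7 the groups overlapped. The median log2 change was -0.25 (-0.17 without control replicate 1), from -0.40 for Slc6a17 to 0.31 for Slc6a11, which are named as the ends of the range after their values were seen. Without control replicate 1 these were -0.10 and 0.58. Both were noisy, with SEs of 0.48 and 0.45, and dim, with control means of 59.2 and 37.2. Slc7a3, singled out as a cationic carrier of the same family as Slc7a1, had 111, 74.7 and 144 in the controls and 65.7, 104 and 97.0 with PTX, with a log2 change of -0.25. The family is thus poorly covered, and most of its probe sets here lie below the filter.

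Genes of the amino acid response and of amino acid synthesis were measured beside the transporters, from a list drawn up with part of their results known, so it is not independent evidence of a direction. Of 13 tested genes 12 had a negative log2 change, 9 without overlap of the groups (10.6% of all tested probe sets had every PTX array lower), and the median was -0.52, or -0.41 without control replicate 1. Among the 12, Mthfd1 and the brightest probe set of Cebpb were close to 0, at -0.0048 and -0.0028. Negative changes made up 52.9% of all tested probe sets and 65.2% of those not named rc_. Limma called 0 of their 21 probe sets past an adjusted p of 0.05 with all arrays (before adjustment p was under 0.05 for 11, all lower, against 242 lower of the 5244 tested) and 6 lower without control replicate 1, where 0.343% of all tested probe sets were called lower. Phgdh, the first enzyme of serine synthesis, had 1198, 955 and 1219 in the controls and 677, 735 and 688 with PTX on its brightest probe set. All PTX arrays were lower, with a log2 change of -0.66 ± 0.14 (SE) and a limma adjusted p of 0.191. Its second probe set gave -0.70 (adjusted p = 0.184). The dimmer rc_AI008677_s_at gave -1.23 ± 0.36 (SE), also without overlap (limma adjusted p = 0.296). Asns, which makes asparagine, had -0.91, the stress response factor Ddit3 -0.83, and Trib3, a pseudokinase that restrains ATF4, -0.75, with limma adjusted p of 0.0876, 0.114 and 0.184. The other Trib3 probe set, rc_H31287_at, had overlapping groups and -0.89, or -0.46 without control replicate 1. The changes of Slc3a2 and Slc7a1 on their brightest probe sets were of the size of that of Phgdh on its brightest. The difference between these genes was not tested.

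Genes that use or load the carried amino acids gave smaller medians. The 4 tested aminoacyl-tRNA synthetase genes had a median of -0.02, with Vars1, which loads valine, at -0.48 ± 0.15 and Kars1, which loads lysine, at 0.39 ± 0.16 (SE), both without overlap and neither past the threshold (limma adjusted p = 0.307 and 0.378). The 12 genes of glutamate, glutamine and glycine handling had a median of 0.01. Glul, which makes glutamine from glutamate, had 296, 301 and 272 against 393, 362 and 352, a log2 change of 0.33 on M91652complete_seq_at that did not pass (limma adjusted p = 0.375), and rc_AA852004_s_at gave 0.39. Its other tested probe sets had overlapping groups, with 0.13 for the brightest, rc_AI232783_s_at, and -0.17 for M91652complete_seq_g_at, so the probe sets of Glul did not share a direction. Arg1, which splits the arginine that Slc7a1 carries, had 146.5 ± 11.3 and 191 ± 17.4 (SD, n = 3 each; log2 change 0.35, limma adjusted p = 0.409). Odc1, which makes polyamines from ornithine, had -0.41 and Got2, the mitochondrial aspartate aminotransferase, 0.34, with limma adjusted p of 0.366 and 0.374 on J04791_s_at and rc_AA892012_g_at. The brightest probe sets of both genes had overlapping groups, with -0.25 for Odc1 and the opposite direction, -0.11, for Got2.

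The 16 genes of translation and amino acid sensing had a median of -0.11, 11 negative and 5 positive. Rraga, a GTPase that reports amino acids to mTORC1, had 853, 1090 and 937.5 in the controls and 1289, 1130 and 1275 with PTX, without overlap, a log2 change of 0.36 (limma adjusted p = 0.374). Eif4e, which binds the mRNA cap, had 0.54 and Rps6kb1, the S6 kinase, -0.31 (limma adjusted p = 0.375 and 0.450). Eif4e was at 0.33 without control replicate 1, and the other tested probe set of Rps6kb1, M58340_at, gave 0.06. Eif2ak2, a kinase of the initiation factor eIF2, had 0.65 and Eif2b2, a subunit of its exchange factor, -0.26 (limma adjusted p = 0.274 and 0.430). Limma called 0 probe sets of these 3 lists. Before adjustment, p was under 0.05 for 1 higher and 1 lower probe set of the synthetases, 2 and 1 of glutamate handling, and 3 and 0 of translation.

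**Figure D3:**
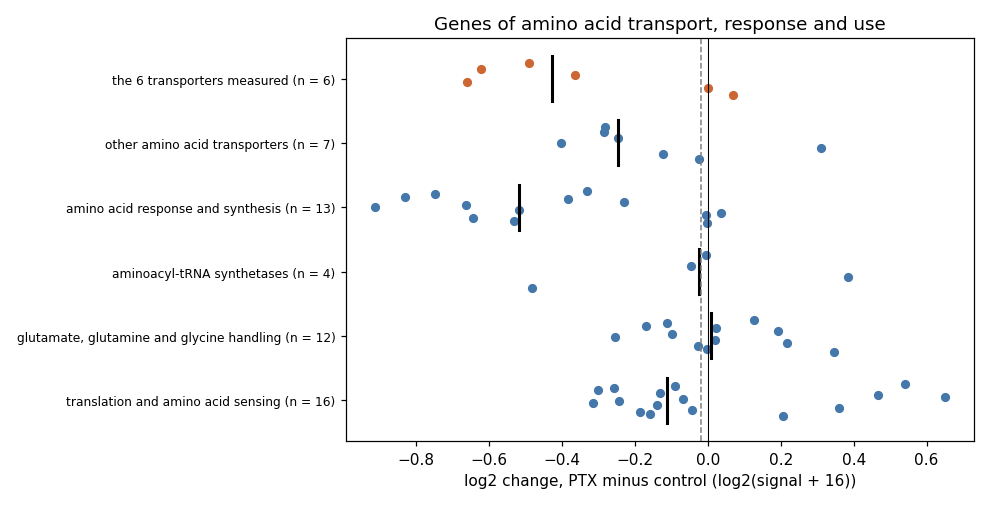
Log2 change, PTX minus control on the log2(signal + 16) scale, of each gene on its brightest tested probe set, for the 6 transporters measured (orange) and the 5 other gene lists (blue), with a black bar at each median and a dashed line at the median of all tested probe sets, -0.02. The transporters range from -0.66 to 0.07 and the amino acid response genes reach -0.91.

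Markers of cell types are given beside the transporter values, and with all arrays limma called 0 probe sets of any of these lists. Before adjustment, p was under 0.05 for 4 higher and 4 lower probe sets of the fibroblast list, 0 and 6 of the cardiomyocyte list, 2 and 0 of the macrophage and leukocyte list, and 0 of the others. Without control replicate 1, 1 macrophage marker, the Fc receptor gene Fcgr2b (0.88 with and without that array), was called higher and 1 fibroblast marker, Thy1 (-0.97, and -0.95 without it), lower; both are named after their values were seen. The 11 cardiomyocyte markers tested had a summed signal of 271403 to 361006 in the controls and 238098 to 268983 with PTX, with 10 of 11 negative and a median of -0.27, or -0.10 without control replicate 1. The 5 macrophage and leukocyte markers tested had 3343 to 3486 and 4175 to 5339, with 3 positive, of which Lyz2, a lysozyme, was the brightest, at 2381 ± 210 and 3445 ± 638 (SD, n = 3 each). Schwann cell and glial markers, given because Slc1a3 is a glial transporter, had 3877 to 4315 and 3623 to 3686 over 4 tested genes, mostly from Pmp22, at 3541 ± 175 and 3122 ± 32.1; S100b and Sox10 lay below the filter. The 11 fibroblast markers had 95968 to 115278 and 96944 to 101005, with 6 of 11 negative. Smooth muscle markers, of which Des was the brightest, had 22708 to 24929 and 22931 to 23855 over 5 genes, and endothelial markers, of which Kdr was the brightest, 137 to 275 and 126 to 219.5 over 3. Csf1r, Ptprc, Itgam and Cd74 of the macrophage list lay below the filter. The part of these cell types in the transporter values was not tested.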

How the data were processed

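Per the submitters' processing notes, GCOS, Affymetrix's own program, was used on the arrays. No source used here names its version, target value or detection calls. As deposited, the table holds 1 linear intensity for each probe set and array. Its 2% trimmed means lay between 493 and 495, so no further scaling was applied. Names come from the platform annotation, and 6985 of 7006 single symbols were updated by Entrez identifier with RefSeq's GRCr8 table, used for names and promoter windows only.

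Means and SDs are of signals. Changes are limma 3.58.1 coefficients in R 4.3.3 (lmFit, eBayes with an intensity trend, two-sided, Benjamini-Hochberg over 5244 probe sets) on log2(signal + 16), with 3 arrays a group; their number limits the precision. The procedure was tested on simulated data. The transporters and lists were chosen with earlier results of these data known. Named list genes are the 5 probe sets per list with the smallest p and no overlap, the brightest marker per cell type, and the 3 patterns most like each transporter. Alternatives changed the pseudocount, filter, scaling, variance model, weights, probe sets, block or arrays.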

Additional observations from a re-analysis of the deposited data

How the results depend on the processing

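Slc7a5, the brightest Slc3a2 probe set and all 3 Slc7a1 probe sets kept a negative change under all 18 alternatives, from -0.55 to -0.45 for Slc7a5, -0.76 to -0.50 for Slc3a2 and -0.83 to -0.43 for the brightest Slc7a1 probe set. Of Slc1a1, D63772_at (-0.66 to -0.20) and L35558_s_at (-0.38 to -0.13) kept one too. The second Slc3a2 probe set, Slc6a9, AF038571_s_at of Slc1a1 and all Slc1a3 probe sets changed sign under at least 1. The transporter median was -0.50 with a pseudocount of 1, -0.33 with 64 and -0.26 with all probe sets of a gene averaged, and -0.48 to -0.36 with single arrays left out.

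Limma called 4 probe sets higher and 0 lower in all (418 and 242 at an unadjusted p under 0.05). The higher calls were 2 with a pseudocount of 1 and with quantile normalization, 7 with a pseudocount of 64, 9 with robust variances, 8 without the rc_AA799 and rc_AA800 probe sets, and 0 without a trend (405 unadjusted). Array weights gave 66 higher and 15 lower. Leaving out single arrays gave 0 to 97 higher and 0 to 18 lower, with 97 and 18 without control replicate 1, 30 higher without control replicate 3, and 0 without PTX replicate 1, 2 or 3 (361, 379 and 381 unadjusted, both directions). The amino acid response list had 4 lower calls with array weights and 0 to 6 with single arrays left out; its median was -0.54 to -0.40 there and -0.39 with all probe sets of a gene averaged. The median of the other transporters was -0.21 to -0.076 with single arrays left out. The causes were not tested.

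With the replicate number as a block, 0 probe sets were higher and 0 lower (373 and 179 unadjusted). Deviations of same-numbered arrays from their group means correlated at -0.09, -0.11 and -0.01, and control replicate 1 correlated best with PTX replicate 2 (0.10). Deviations from means of so few arrays cannot decide whether the numbers pair the cultures, which the labels do not say either.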
